A study of Mus musculus with 6 samples.

Results

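The genes described here are 10 regulators of the switch between epithelial and mesenchymal state, 6 transcription factors that drive epithelial-mesenchymal transition (EMT), Snai1, Snai2, Twist1, Twist2, Zeb1 and Zeb2, and 4 regulators of the epithelial state, the splicing factors Esrp1 and Esrp2 and the transcription factors Grhl2 and Ehf. They were chosen by name, with earlier results of these data known, as rows of the array table annotated to 1 of these symbols alone. The 19 gene lists used below were also chosen with those results known. All 10 genes were found among 19938, each with 1 probe set. RNA came from small intestinal tissue of mouse embryos at E18.5, shortly before birth, from 3 E-cadherin conditional knockout (cKO) samples and 3 control samples whose genotype is given as wildtype. E-cadherin, encoded by Cdh1, holds neighbouring epithelial cells together. The sources used here do not say what drove the recombination, which exons were removed or whether each sample was 1 animal, so the p-values speak only for the spread among these 6 samples, part of which may be technical. The values are 1 expression value per probe set and array, read as log2 from their range of 0 to 14.07, so that a difference of 1 is a doubling under that reading.

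In EMT, epithelial cells lose their junctions and polarity and take on a migratory, mesenchymal form. SNAIL and ZEB proteins are zinc finger repressors that bind the E-box sequence CACCTG in the promoters of Cdh1 and other epithelial genes, and TWIST proteins are basic helix-loop-helix factors that act beside them. ESRP proteins direct the epithelial pattern of splicing, GRHL2, a grainyhead factor, maintains junction genes and represses Zeb1, and EHF is an ETS factor of epithelia. The SNAI, TWIST and ZEB genes are also expressed in the normal fibroblasts, muscle, glia, vessels or blood cells of the gut wall, and a sample of intestinal tissue can hold all of these.

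Zeb1, Zeb2 and Snai2 were higher in the cKO intestine, while Snai1 missed the threshold and Twist1 and Twist2 lay close to 0 difference. None of the 4 epithelial regulators passed the threshold in either direction. Of the 10 genes, 3 (30%) passed as higher and 0 as lower (limma, Benjamini-Hochberg adjusted p under 0.05 over all genes), against 14.2% of all 19938 genes in either direction, 6.81% as higher and 7.36% as lower. Without control 2 or control 3, 1 of the 10 passed as higher, and without cKO 1, 1 passed as lower. Fewer of all genes passed too, 1226 without control 2 and 1505 without control 3, in place of 2825. Later counts with 1 array left out share this fall over all genes. At an unadjusted p under 0.05, Snai1, Esrp1 and Ehf passed as well, which makes 6 of the 10 genes, against 28.7% of all genes. The 3 cKO values lay wholly above the 3 control values in 5 of the 10 genes and wholly below them in 1, against 16% and 19.3% of all genes, or 35.4% in either direction. With 10 genes, these shares describe the set and were not tested. All 10 genes lay above background on all 6 arrays, background being the level under which 95% of 1231 olfactory, vomeronasal and taste receptor genes fell (5.78 to 6.36 over the arrays), and the closest were Snai1, by 0.11, and Twist2, by 0.21.

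**Figure D1:**
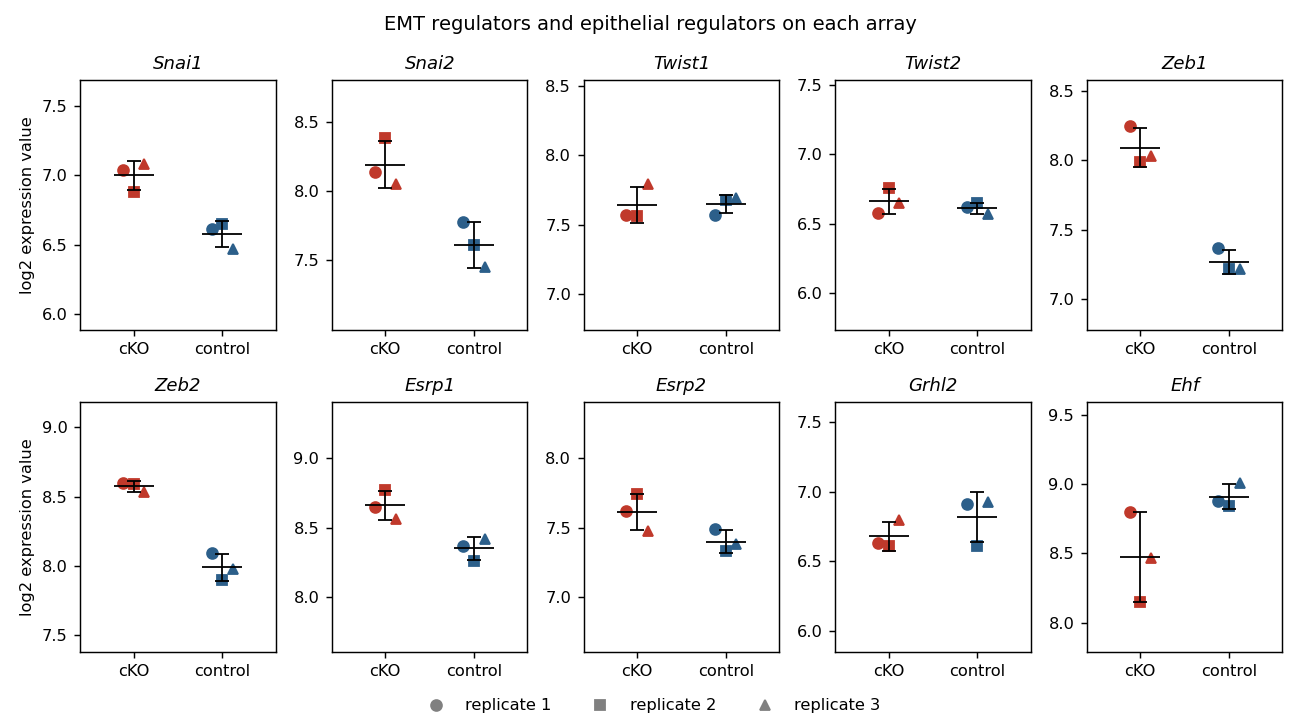
Log2 expression value (vertical axis, the same span in every panel) of each gene on the 3 cKO arrays (red, left) and the 3 control arrays (blue, right), with the mean and SD in black and a symbol for each replicate number. The groups stand apart in Snai1, Snai2, Zeb1, Zeb2 and Esrp1 (cKO above) and in Ehf (cKO below), and overlap in the other genes.

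The sample check on the targeted gene gave 9.70, 8.38 and 8.91 for Cdh1 in cKO 1, 2 and 3, against 9.86, 9.82 and 10.15 in controls 1, 2 and 3. The difference of -0.95 (SE 0.31) did not pass (limma adjusted p = 0.0884), and the exact permutation test gave p = 0.1, the smallest that 3 against 3 allows. Cdh1 in cKO 1 lay nearest the controls, so leaving out that array could only enlarge the difference (-1.3, limma adjusted p = 0.0118). Without cKO 2, the lowest, it was -0.64 (adjusted p = 0.145). The sources used here do not say whether the probes lie inside the deletion. The receptor genes read low on cKO 2, with a median shift of -0.37 from the control mean, where the other 5 arrays lay between -0.06 and 0.09.

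Zeb1, which represses Cdh1 and other junction genes, read 8.25, 7.99 and 8.03 in cKO 1, 2 and 3, against 7.37, 7.22 and 7.22 in controls 1, 2 and 3. Every cKO value lay at least 0.62 above every control value. The mean was 8.09 ± 0.14 in cKO and 7.27 ± 0.09 in control (SD, n = 3 each), a difference of 0.82 (SE 0.12, 95% interval 0.54 to 1.10, limma adjusted p = 0.00554), or 1.77-fold. Of all genes, 3.10% had a higher difference. The call held in all 16 other settings tried, with differences of 0.74 to 0.87.

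Zeb2, the second ZEB repressor and also a factor of neural crest, glia and myeloid cells, read 8.60, 8.59 and 8.53 in cKO 1, 2 and 3, against 8.09, 7.90 and 7.98 in controls 1, 2 and 3. The cKO values were nearly level with each other, and all lay above the highest control. The difference was 0.58 (SE 0.11, 95% interval 0.33 to 0.84, limma adjusted p = 0.0129), or 1.5-fold. The call was lost without control 2 (0.54, adjusted p = 0.0755) or control 3 (0.58, adjusted p = 0.0510). The change of Zeb1 was larger than that of Zeb2 by 0.24, with no overlap of the groups (exact two-sided permutation p = 0.1, adjusted p = 0.161 over the 45 pairs among the 10 genes). With 3 against 3 no smaller p is possible, so this test could not pass for any pair. This smallest p was reached by 28 of the 45 pairs, so it does not set this pair apart.

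ZEB transcripts are the best known targets of the miR-200 family, which keeps them low in epithelia. The 5 mature 3p sequences are shown because they fall into 2 groups that differ by 1 base within the seed (bases 2 to 8, in capitals), and both seeds have known sites in Zeb transcripts (sequences and positions from RefSeq, GRCm38.p6).
miR-200b-3p: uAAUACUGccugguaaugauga
miR-200c-3p: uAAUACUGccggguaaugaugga
miR-429-3p: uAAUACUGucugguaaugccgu
miR-200a-3p: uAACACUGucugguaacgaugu
miR-141-3p: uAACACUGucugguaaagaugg
miR-200b, miR-200c and miR-429 share the first seed, and miR-200a and miR-141 share the second. The genes lie in 2 clusters, Mir200b, Mir200a and Mir429 on chromosome 4 (minus strand, chr4:156053916-156055706 from the last to the first mature sequence) and Mir200c and Mir141 on chromosome 6 (minus strand, chr6:124717917-124718346). Of 10 microRNA genes that target Zeb or Snail transcripts (the miR-200 family, Mir205, Mir203 and the miR-34 family), 9 had a probe set with a single symbol, and Mir429 was not analysed here. Of these, 8 were at or below background on all 6 arrays, and Mir200c exceeded it on cKO 3 and control 3 alone. Mir200c read 6.18, 5.31 and 6.23 in cKO 1, 2 and 3, against 5.88, 6.08 and 6.37 in controls 1, 2 and 3. None of the 9 passed the threshold by limma, and 1 had an unadjusted p under 0.05 (Mir34b, -0.42, below background throughout). With array weights Mir200b (-0.76, adjusted p = 0.0145, against -0.41 without weights) and Mir34c (0.61, adjusted p = 0.0335, against 0.33) passed, although both were below background on all 6 arrays. These probe sets read the gene and not the mature microRNA.

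Snai2, also called Slug, a repressor of Cdh1 and a factor of neural crest and fibroblasts, read 8.14, 8.38 and 8.05 in cKO 1, 2 and 3, against 7.78, 7.61 and 7.45 in controls 1, 2 and 3. All cKO values lay above all control values, with 0.27 between the nearest. The difference was 0.58 (SE 0.14, 95% interval 0.25 to 0.91, limma adjusted p = 0.0352), or 1.49-fold. This call was less stable than those of the ZEB genes: it was lost whichever array was left out, cKO 1 (adjusted p = 0.0615), cKO 2 (0.0640), cKO 3 (0.0641), control 1 (0.0502), control 2 (0.125) or control 3 (0.126), and with the replicate number as a block (0.0553).

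Snai1, the founding SNAIL repressor, read 7.04, 6.88 and 7.08 in cKO 1, 2 and 3, against 6.61, 6.65 and 6.47 in controls 1, 2 and 3. The groups did not overlap, and the values lay near background. The difference of 0.42 (SE 0.12, 95% interval 0.15 to 0.69) just missed the threshold (limma adjusted p = 0.0518). It passed with quantile normalization (adjusted p = 0.0270), median centring (0.0428), cyclic loess (0.0284), array weights (0.00744), without the dimmest 25% of genes (0.0279) and without cKO 2 (0.0385). Between Snai1 and Snai2 the change differed by -0.15, with overlapping groups (exact permutation p = 0.6, adjusted p = 0.628 over the 45 pairs).

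The start of Snai1 is printed because SNAIL protein is known to act on its own promoter, and it holds 1 CACCTG (in capitals), 126 bases before the annotated start. The window runs from 250 bases before to 50 after that start, 5′ to 3′, at chr2:167537945-167538244 (plus strand, GRCm38.p6, RefSeq).
Snai1: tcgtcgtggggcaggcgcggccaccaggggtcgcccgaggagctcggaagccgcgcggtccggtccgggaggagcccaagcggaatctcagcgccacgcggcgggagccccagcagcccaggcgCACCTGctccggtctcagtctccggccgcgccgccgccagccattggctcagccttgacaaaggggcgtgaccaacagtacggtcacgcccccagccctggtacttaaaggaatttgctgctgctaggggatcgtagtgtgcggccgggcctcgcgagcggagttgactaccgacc
Windows of this length were held for 4 of the 10 genes. No CACCTG, on either strand (CAGGTG), was found in the windows of Twist1 and Twist2 or in the 4 windows of Zeb2, and no grainyhead sequence, AACCNGTT, in any of them. CACCTG occurred in 20.2% of all 32851 promoter windows and AACCNGTT in 2.09%. A match describes letters and does not show that a factor bound there.

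Twist1 and Twist2, which mark mesenchyme and are among the strongest inducers of EMT, did not pass. Twist1 read 7.57, 7.56 and 7.79 in cKO 1, 2 and 3, against 7.57, 7.68 and 7.69 in controls 1, 2 and 3. The groups overlapped, and the difference was -0.01 (95% interval -0.28 to 0.27, limma adjusted p = 0.977), with a sign that turned under several settings. Twist2 read 6.58, 6.76 and 6.65 in cKO 1, 2 and 3, against 6.62, 6.65 and 6.57 in controls 1, 2 and 3, again overlapping, a difference of 0.05 (95% interval -0.20 to 0.30, adjusted p = 0.786). For both, the interval holds no increase above 0.30. Set against Twist1 on the same array, Zeb1, Zeb2, Snai2 and Snai1 each stood higher on every cKO array than on every control array. Each such comparison gave an exact permutation p = 0.1, the smallest possible, which 28 of the 45 pairs reached.

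Esrp1, the main epithelial splicing regulator of the gut, read 8.65, 8.77 and 8.56 in cKO 1, 2 and 3, against 8.37, 8.26 and 8.42 in controls 1, 2 and 3. All cKO values lay above all control values. The difference of 0.31 (SE 0.11, 95% interval 0.04 to 0.58) did not pass (limma adjusted p = 0.123), except when the dimmer 50% of genes were left out (adjusted p = 0.0466). Its paralogue Esrp2 read 7.62, 7.74 and 7.48 in cKO 1, 2 and 3, against 7.49, 7.33 and 7.38 in controls 1, 2 and 3. These groups overlapped by 0.01, and the difference was 0.21 (95% interval -0.06 to 0.49, adjusted p = 0.286). The 95% interval reached down to 0.04 for Esrp1 and to -0.06 for Esrp2.

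Grhl2 read 6.63, 6.61 and 6.80 in cKO 1, 2 and 3, against 6.91, 6.61 and 6.93 in controls 1, 2 and 3. The groups overlapped, and the difference was -0.14 (95% interval -0.45 to 0.17, limma adjusted p = 0.540). Ehf read 8.80, 8.15 and 8.47 in cKO 1, 2 and 3, against 8.88, 8.84 and 9.01 in controls 1, 2 and 3. It was the 1 gene of the 10 with all cKO values below all control values, by only 0.04 in cKO 1 and by 0.69 in cKO 2. Its difference of -0.44 (SE 0.17, 95% interval -0.84 to -0.03) did not pass (adjusted p = 0.148), but did with array weights (-0.38, adjusted p = 0.0383) and without cKO 1 (-0.60, adjusted p = 0.0461). The order of the cKO arrays in Ehf, with cKO 1 highest and cKO 2 lowest, was also that of Cdh1. It was also the order in Zeb1, Fn1 and Col1a1, which rose, and the receptor genes read low on cKO 2 (-0.37). An order of 3 arrays therefore does not tie Ehf to Cdh1.

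**Figure D2:**
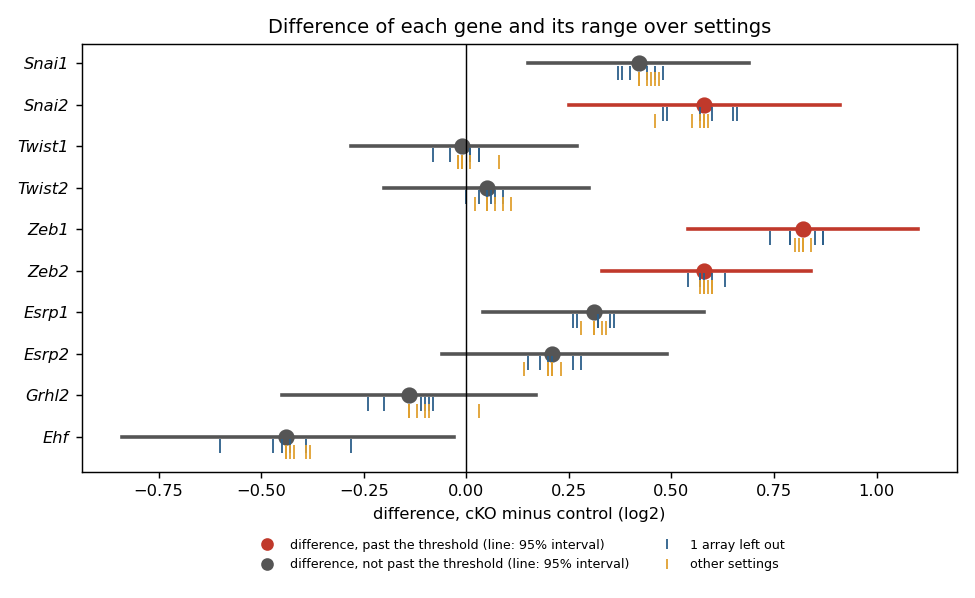
Difference in log2 value, cKO minus control (horizontal axis), for each gene, with its 95% interval. Red marks the 3 genes past the threshold, grey the 7 others, and ticks below each point give the difference with 1 array left out (blue) or under another setting (orange). The ticks of Zeb1 run from 0.74 to 0.87, and those of Twist1 lie on both sides of 0.

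By cell type markers, fibroblasts, smooth muscle and macrophages of the gut wall also read higher in cKO. The part of these cells in the rise of Zeb1, Zeb2 and Snai2 was not tested. In whole tissue, more cells of a type and more RNA per cell cannot be told apart. Of 10 fibroblast markers 9 rose, with a median difference of 0.62 and a mean level per array of 10.20 to 10.45 in cKO and 9.58 to 9.70 in control. All 10 smooth muscle markers rose (median 0.87, mean level 10.34 to 10.56 in cKO and 9.40 to 9.67 in control). Of 12 macrophage markers 10 rose (median 1.07, mean level 8.31 to 8.63 in cKO and 7.45 to 7.59 in control). No marker of these lists was at 0. Over all genes 6.81% rose and 7.36% fell.

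The other lists moved less or unevenly. Endothelium had 1 of 11 markers higher (median 0.19, mean level 8.26 to 8.36 in cKO and 8.10 to 8.13 in control), and enteric neurons and glia 3 of 9 (median 0.31, mean level 7.73 to 7.79 in cKO and 7.46 to 7.58 in control). For mesothelium, 3 of 5 rose (median 0.83, mean level 7.83 to 8.44 in cKO and 7.28 to 7.54 in control), and for neutrophils 3 of 9 (median 0.02, mean level 5.70 to 6.41 in cKO and 5.17 to 5.19 in control), those 3 below background in every control. Ly6g read above background on all 3 cKO arrays (6.52, 9.27 and 6.54 in cKO 1, 2 and 3), Cxcr2 and S100a8 on cKO 2 alone (7.32 and 6.46). With each control set at its array's background level, the difference was 1.17 for Ly6g, -0.34 for Cxcr2 and -0.76 for S100a8. No rise above background is thus shown for the last 2. The mean shift of the neutrophil list was 0.51, 1.22 and 0.51 in cKO 1, 2 and 3. The 10 epithelium markers split into 3 higher, 2 lower and 5 that did not pass (median -0.12, mean level 11.06 to 11.09 in cKO and 10.81 to 11.06 in control). Those higher were the keratins Krt20 (1.61), Krt8 (0.91) and Krt19 (0.77), and those lower Cdx2 (-0.79) and Cdx1 (-0.60). The median over all genes was -0.09, with 6.81% of them higher and 7.36% lower. Leaving out control 2 brought the fibroblast count to 2 of 10 and the smooth muscle count to 5 of 10, leaving out cKO 1, cKO 3, control 1 or control 3 brought the fibroblast count to 3, 3, 4 or 2, and leaving out control 3 brought the smooth muscle count to 6, whereas 9 or 10 macrophage markers passed throughout. Without control 3 the mesothelium count was 1, without control 2 or cKO 3 the enteric count was 1, without any 1 control the neutrophil count was 0, and without any 1 of the 6 arrays the endothelium count was 0. Epithelium markers lower numbered 1 without cKO 3 or any 1 control.

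Set against the fibroblast marker mean on the same array (a shift of 0.70), Zeb1 was still higher by 0.12 with no overlap between cKO and control arrays. On that scale Zeb2 differed by -0.11 and Snai2 by -0.12, both overlapping, Snai1 by -0.27, Twist1 by -0.70 and Twist2 by -0.65, the last 3 with all cKO arrays below all controls. Set against the smooth muscle mean (a shift of 0.94), Zeb1 differed by -0.12 with all cKO arrays below all controls, and against the macrophage mean (a shift of 0.98) by -0.16 with overlap. Zeb2 and Snai2 each differed by -0.36 on the smooth muscle scale, and by -0.40 and -0.41 on the macrophage scale, all with the cKO arrays below the controls. Against the epithelium mean (a shift of 0.13) Zeb1, Zeb2 and Snai2 stood above by 0.68, 0.45 and 0.44, Esrp1 by 0.18 and Esrp2 by 0.08 with overlap, and Ehf below at -0.57. That mean joins keratins that rose with Cdx1 and Cdx2, which fell, and the list's median was -0.12, so these sizes depend on the markers chosen. These are values without a test, on a scale chosen after the data had been seen.

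**Figure D3:**
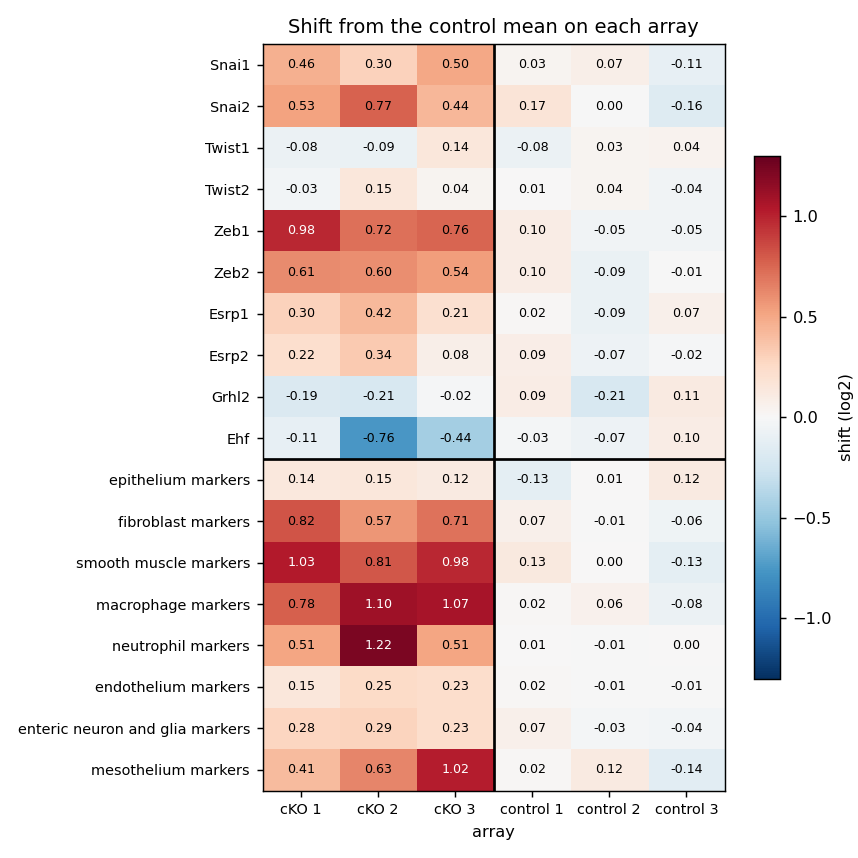
Shift from the control mean (log2, colour and printed value) on each of the 3 cKO arrays (left) and 3 control arrays (right), for each gene and, below the line, for the mean of each marker list. Zeb1 (0.98, 0.72 and 0.76 on cKO 1, 2 and 3) and the fibroblast mean (0.82, 0.57 and 0.71) were highest on cKO 1 and lowest on cKO 2. The smooth muscle mean and Ehf had the same order, while Zeb2 was lowest on cKO 3 and Snai2 highest on cKO 2. An order of 3 arrays does not tie a gene to a list.

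Of 14 other transcription factors of mesenchyme and helix-loop-helix partners of TWIST, 2 (14.3%) rose, 1 (7.14%) fell and 11 did not pass. Over all genes 6.81% rose and 7.36% fell. The median was 0.11 against -0.09 for all genes. Tcf4, a partner of TWIST proteins, rose by 0.46 (SE 0.11, limma adjusted p = 0.0327) and Id1, an inhibitor of such partners, by 0.54 (SE 0.12, adjusted p = 0.0278). Both calls were lost without cKO 3, control 1, control 2 or control 3, and that of Tcf4 also without cKO 2 (adjusted p up to 0.136 for Tcf4 and 0.102 for Id1). Prrx1, a homeobox gene of mesenchyme that also drives EMT, fell: it read 5.83, 6.03 and 6.35 in cKO 1, 2 and 3, against 7.02, 7.55 and 7.61 in controls 1, 2 and 3. Its difference of -1.32 (SE 0.20, adjusted p = 0.00628) held in all 15 other settings that could test it, and the cKO 1 value was below background. Foxf1, the gut mesenchyme factor, differed by 0.35 (adjusted p = 0.0735), and its second probe set by 0.51 (adjusted p = 0.0364 over all probe sets). It stayed uncalled in 9 of 16 other settings and passed in the rest, such as quantile normalization (0.49, limma adjusted p = 0.0167).

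Of 12 other epithelial transcription factors measured, 1 (8.33%) rose, 0 fell and 11 did not pass, against 6.81% and 7.36% of all genes. The median was -0.06 against -0.09 for all genes. The gene that rose was Foxa3, a forkhead factor of gut endoderm, by 0.82 (SE 0.16, limma adjusted p = 0.0151), a call lost without cKO 3, control 2 or control 3 (adjusted p = 0.0527, 0.0701 and 0.0678). Without cKO 2, Foxa1 passed as well (0.50, adjusted p = 0.0476). Foxa1 differed by 0.44 (adjusted p = 0.0555), Grhl3, a paralogue of Grhl2, by 0.34 (adjusted p = 0.0961) and Ovol1, a repressor of mesenchymal genes, by -0.42 (adjusted p = 0.0873). The calls on these 3 depended on the scaling, the filter or array weights, with Foxa1 and Grhl3 always above 0 and Ovol1 always below.

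Of 24 epithelial genes known to be repressed in EMT, 5 (20.8%) rose, 1 (4.17%) fell and 18 did not pass, against 6.81% and 7.36% of all genes. The median was -0.07 against -0.09 for all genes. All cKO values lay above all control values in 7 of the 24 and below in 9, against 16% and 19.3% of all genes. The 9 include Cdh1, the targeted gene, which was also 1 of the 18 that did not pass. Cldn4 and Cldn3, claudins of tight junctions, rose by 3.08 (SE 0.16, limma adjusted p = 0.000381) and 1.17 (SE 0.12, adjusted p = 0.00166), and Krt8, a keratin of simple epithelium, by 0.91 (SE 0.11, adjusted p = 0.00315). The others that rose were Krt18 and Krt19, and Krt8, Krt19 and Epcam also stand among the epithelium markers. Ap1m2, a subunit of the clathrin adaptor that sorts cargo to the basolateral membrane of epithelial cells, read 9.34, 9.28 and 9.21 in cKO 1, 2 and 3, against 10.29, 10.43 and 10.45 in controls 1, 2 and 3. The groups lay far apart, a difference of -1.11 (SE 0.11, adjusted p = 0.00144). The count of 5 higher was the same with each array left out. That of genes lower was 2 without cKO 1 (Ap1m2 and Cdh1) and 3 without cKO 2.

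Promoter windows were held for 16 of these 24 genes, and CACCTG occurred in those of 15 (93.8%), against 22.6% of all 27025 genes with a window. The list was drawn from genes known as EMT targets, some of them through this sequence, so the share is not independent of it. Of the 15, 4 rose, 1 fell and 10 did not pass, so genes with the sequence were found in each class. Ap1m2 and Cldn4 are printed as the genes of this group with the lowest and the highest difference, from RefSeq (GRCm38.p6) with CACCTG or its complement CAGGTG in capitals. Ap1m2 covers 100 bases before to 50 after the start at chr9:21312284-21312433 (minus strand), and Cldn4 covers 50 bases before to 50 after at chr5:134946885-134946984 (minus strand).
Ap1m2: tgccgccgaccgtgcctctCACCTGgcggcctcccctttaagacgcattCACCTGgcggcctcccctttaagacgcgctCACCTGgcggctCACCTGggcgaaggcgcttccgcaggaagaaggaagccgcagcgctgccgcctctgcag
Cldn4: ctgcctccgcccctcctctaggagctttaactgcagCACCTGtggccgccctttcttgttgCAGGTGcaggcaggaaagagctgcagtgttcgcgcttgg
Ap1m2 holds 4 matches, at 81, 51, 21 and 9 bases before the start, all in the same orientation. Cldn4 holds 2 in opposite orientation, 1 on each side of the start.

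Mesenchymal effector genes of EMT rose broadly: 17 of 21 measured (81%) were higher and 0 lower, against 6.81% and 7.36% of all genes. The median was 0.76 against -0.09 for all genes. Mmp9, a gelatinase also made by myeloid cells, rose by 1.91 (SE 0.18, limma adjusted p = 0.0012), Itga5, the fibronectin receptor subunit, by 1.52 (SE 0.13, adjusted p = 0.00102), Tnc, tenascin C, by 1.38 (SE 0.15, adjusted p = 0.0021) and Fn1, fibronectin, by 1.26 (SE 0.12, adjusted p = 0.00114). These genes are expressed by the fibroblasts, muscle and immune cells whose markers also read higher, and 4 of the list (Col1a1, Col3a1, Acta2 and Tagln) serve as such markers here. The count was 10 without cKO 3, control 2 or control 3.

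**Figure D4:**
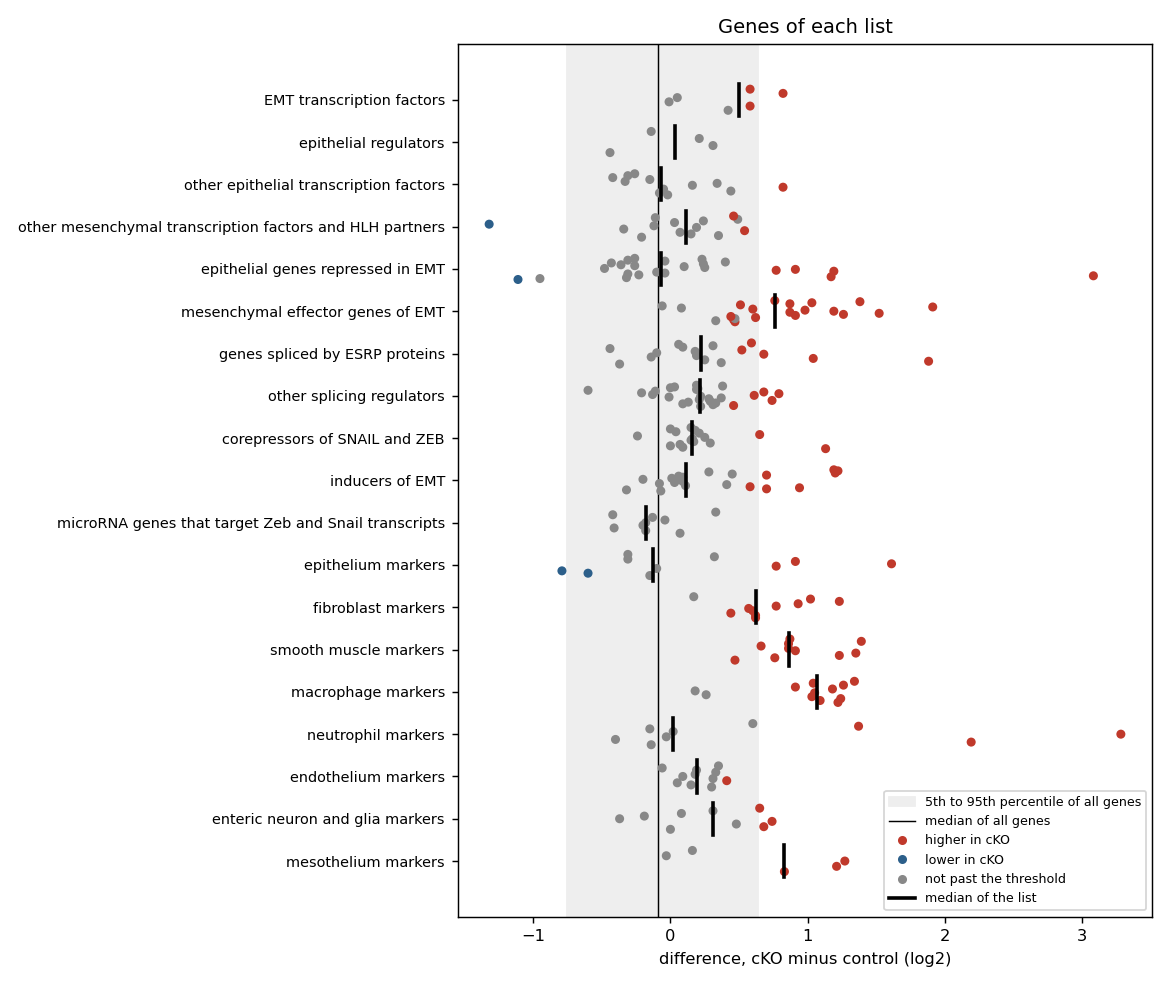
Difference in log2 value, cKO minus control (horizontal axis), of each measured gene of each list (points), with the list's median as a bar, the 5th to 95th percentile of all genes shaded and the median of all genes as a line. The mesenchymal effector genes and the fibroblast, smooth muscle and macrophage markers lie mostly above 0, and the epithelial genes repressed in EMT lie on both sides.

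Genes whose transcripts ESRP proteins are known to splice were examined for level alone, since 1 value per gene does not show isoforms. Of 16 measured, 5 (31.2%) rose, 0 fell and 11 did not pass (median 0.22). Over all genes 6.81% rose, 7.36% fell and the median was -0.09. Cd44, a hyaluronan receptor whose variable exons ESRP proteins retain, read 9.17, 9.41 and 9.73 in cKO 1, 2 and 3, against 7.56, 7.56 and 7.55 in controls 1, 2 and 3. The controls were nearly identical and all cKO values lay far above them, a difference of 1.88 (SE 0.16, limma adjusted p = 0.000797). Macf1, a cytoskeletal crosslinker, rose by 0.68 (SE 0.12, adjusted p = 0.00951), the kinase gene Slk by 0.59 (SE 0.10, adjusted p = 0.0102) and Mprip, a myosin phosphatase scaffold, by 0.52 (SE 0.11, adjusted p = 0.0191). Without control 2 these 3 were not called (adjusted p = 0.0575, 0.0570 and 0.0974) and 1 of 16 passed. Without cKO 3 or control 3 the count was 3, and Mprip was not called (adjusted p = 0.0779 and 0.0701).

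Of 26 other splicing regulators measured, 5 (19.2%) rose, 0 fell and 21 did not pass (median 0.21). Over all genes 6.81% rose, 7.36% fell and the median was -0.09. Rbfox2, which promotes mesenchymal splicing, rose by 0.68 (SE 0.12, limma adjusted p = 0.0112) and Ptbp2, a polypyrimidine tract binder of neurons, by 0.61 (SE 0.15, adjusted p = 0.0364). Khdrbs3, a STAR family RNA binder, rose by 0.74 (SE 0.19, adjusted p = 0.0433). Qk, the quaking gene, rose by 0.79 on its brightest probe set (SE 0.14, adjusted p = 0.00967), whereas its other 2 probe sets differed by -0.24 and -0.15 (adjusted p = 0.491 and 0.661 over all probe sets), so its direction rests on 1 probe set. Without control 2, 0 of the 26 passed (adjusted p = 0.0577 for Rbfox2, 0.140 for Ptbp2, 0.141 for Khdrbs3 and 0.0511 for Qk), and without cKO 1, cKO 2, cKO 3 or control 3 the count was 3, 2, 2 and 2.

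Of the corepressors that SNAIL and ZEB proteins recruit, 2 of 16 (12.5%) rose, 0 fell and 14 did not pass (median 0.16). Over all genes 6.81% rose, 7.36% fell and the median was -0.09. Ajuba, a LIM protein that binds SNAIL and also adherens junctions, rose by 1.13 (SE 0.15, limma adjusted p = 0.00411), and Prmt5, an arginine methyltransferase, by 0.65 (SE 0.16, adjusted p = 0.0321), a call lost without cKO 2, cKO 3, control 2 or control 3 (adjusted p = 0.0672, 0.103, 0.123 and 0.116), where 1 of the 16 passed. Dnmt1 and the demethylase gene Kdm1a differed by 0.29 and 0.25 (adjusted p = 0.136 and 0.163).

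Among 21 genes of signals that can induce EMT, 7 (33.3%) rose, 0 fell and 14 did not pass (median 0.11). Over all genes 6.81% rose, 7.36% fell and the median was -0.09. The receptor gene Tgfbr2 rose by 1.22 (SE 0.11, limma adjusted p = 0.0012), its ligand gene Tgfb3 by 1.20 (SE 0.18, adjusted p = 0.00628), and Wnt5a, a mesenchymal Wnt ligand, by 1.19 (SE 0.14, adjusted p = 0.00286). Hgf, the ligand of MET, read 6.95, 7.26 and 6.87 in cKO 1, 2 and 3, against 5.92, 6.11 and 6.24 in controls 1, 2 and 3. Its 3 control values were below background, so it was at least 1.69-fold higher in cKO, with each control set at its array's background level (limma adjusted p = 0.00704 on the values as deposited). These 4 calls held with each array left out, while the list's count was 4 without control 2.

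As a description of likeness, the 2 genes whose 6 values correlated best with each of the 10, among 13596 genes above background on average, were listed. Pearson's r over 6 arrays in 2 groups mostly follows the group difference and carries no test. For Zeb1 they were Islr (0.999, itself different by 0.98) and Mxra8 (0.998, 1.10), for Zeb2 Atrnl1 (0.998) and Odf2 (0.997), for Snai2 Diaph2 (0.997) and Exoc5 (0.996), and for Snai1 Mgp (0.996) and Myom1 (0.995). For Esrp1 they were Sin3b (0.999) and Usp34 (0.994), for Esrp2 Nfe2l1 (0.991) and Fip1l1 (0.988), and for Ehf Slpi (0.999, itself different by -0.78) and Tnnc2 (0.998). Those of Twist1 were Tent5c (0.996) and Lgals7 (0.969), those of Twist2 Pdzd11 (0.999) and Purb (0.989), and those of Grhl2 Zfp263 (0.980) and Supt7l (0.978).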

How the data were processed

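Small intestine of 3 cKO and 3 control samples was measured on Affymetrix Mouse Gene 1.0 arrays and analysed with dChip, per the labels' series design text; the sources used here do not give the dChip version, its background correction and normalization, or a genome build. The authors deposited 35512 probe sets with a value for each array, read as log2 from their range and used without further normalization. Array medians ran from 6.17 (cKO 2) to 6.50. Arrays have no read depth, so precision is limited by their number.

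Of the probe sets, 21789 had 1 gene symbol in the platform annotation, 1621 several and 12102 none listed, and 21698 of the single-symbol probe sets had a gene ID found in RefSeq's gene table (GRCm38.p6), which gave the symbol used. The brightest probe set per gene was kept (999 genes had several), leaving 19938. Genes were tested with limma 3.58.1 (lmFit, eBayes, R 4.3.3), two-sided, no covariate, all 6 arrays, with Benjamini-Hochberg adjustment at 0.05 and moderated SE. The method was tested on simulated data. Exact permutation tests covered Cdh1 and the 45 pairs. The named genes were the 10, Cdh1, up to 4 genes with the smallest p of each pathway list, and the best correlated genes. Mir200c, Krt18, Krt19, Krt20, Epcam, Cdx1, Cdx2, Ly6g, Cxcr2 and S100a8 were named after their values were seen. The 10 genes and the 19 lists were chosen with earlier results of these data known. For 13 of the 251 listed symbols no single-symbol probe set was found, and they were not used here. Samples sharing a replicate number were not paired: their deviations correlated at -0.080, 0.131 and 0.137.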

Additional observations from a re-analysis of the deposited data

How the results depend on the processing

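Zeb1 kept its direction and its call in all 16 alternatives, and Esrp2, Twist1, Twist2 and Grhl2 were called in none that tested them. With array weights 5834 genes passed in place of 2825 (2921 higher and 2913 lower, against 1358 and 1467), Snai1 (0.45), Ehf (-0.38) and Cdh1 (-0.89) were called, so that 1 of the 10 genes was lower, and Twist1 (0.08) and Grhl2 (0.03) turned sign uncalled; the cause was not tested. Snai1 was also called after cyclic loess (0.47), quantile normalization (0.46) or median centring (0.44), and without the dimmest 25% of genes (0.42), where fewer genes were tested. With median centring Snai2 (0.59) was not called, Cdh1 (-0.93) was, and Twist1 read 0.01. Without the dimmer 50% of genes, which leaves out Snai1, Twist2 and Grhl2, Esrp1 (0.31) and Cdh1 (-0.95) were called. The sources used here do not say whether the replicate numbers pair the samples. With the replicate number as a block 2212 genes passed, Snai2 (0.58) was not called, and no other call among the 10 genes and Cdh1 changed.

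With 1 array left out, the genes that passed numbered 1226 (without control 2) to 2713, with 509 to 1275 higher and 717 to 1438 lower, and also fell to 1505 without control 3 and 1517 without cKO 3. Of the 10 genes 1 to 3 were higher and 0 to 1 lower. The differences ranged from 0.48 to 0.66 for Snai2, 0.54 to 0.63 for Zeb2, 0.37 to 0.48 for Snai1, -0.08 to 0.03 for Twist1, -0.60 to -0.28 for Ehf and -1.3 to -0.64 for Cdh1. The median of all genes was -0.09 as deposited and -0.01 with quantile normalization. Dim signal limits Snai1, Twist2 and Grhl2, which lay nearest background.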
